A study of Mus musculus with 14 samples.

Results

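Genes that carry the circadian clock's signal to other genes were examined in mouse liver: the D-box binding factors Dbp, Tef, Hlf and Nfil3, the REV-ERB receptors Nr1d1 and Nr1d2, and the repressors Ciart, Bhlhe40 and Bhlhe41. They were chosen by name as known clock outputs, with earlier results of these data known. They number 9 of the 24411 genes in the count files. All 9 passed the filter on low counts that left 9644 genes for testing. After tunicamycin 4 of them, Hlf, Tef, Ciart and Bhlhe40, were lower when its effect was averaged over both genotypes, and none of the 9 passed the test for loss of Rbbp5.

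The core of the clock is a loop in which the activators CLOCK and BMAL1 bind E-boxes and switch on their own repressors, the PER and CRY proteins. The REV-ERB receptors close another loop by repressing Bmal1 (gene symbol Arntl). DBP, TEF and HLF, the proline- and acid-rich (PAR) bZIP factors, activate genes with D-boxes, among them many genes of drug and lipid metabolism in liver, while NFIL3 represses through the same sites. CIART (also called CHRONO), BHLHE40 (DEC1) and BHLHE41 (DEC2) are E-box dependent genes that hold CLOCK and BMAL1 in check.

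The mice were male littermates of 5 to 7 months. All carried Rbbp5 alleles flanked by loxP sites. WT mice had no Alb-Cre and LKO mice had it, so that the albumin promoter drives deletion in hepatocytes and leaves the other cells of the liver with the gene. RBBP5 is a subunit of the complexes that methylate histone H3 on lysine 4. Mice of both genotypes were given a single intraperitoneal injection of tunicamycin, which blocks N-linked glycosylation and so stresses the endoplasmic reticulum, at 0.05 mg per kg in 500 µl of PBS with 3% DMSO, or that solvent alone as vehicle. The livers were collected 8 h after the injection, which was given from 9 to 10 a.m., so each value belongs to 1 time of day and no rhythm can be read from these data. Bulk liver RNA does not separate fewer cells of a type from less RNA per cell.

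Of the 14 libraries, 6 came from WT mice, 3 for each treatment, and 8 from LKO mice, 4 for each treatment. LKO vehicle libraries 3 and 4 differed by less than the other pairs (chi-square per degree of freedom 1.12, against 3.38 to 25.9 for 17 other pairs of the same group) and were summed as 1 sample, which left 3, 3, 3 and 4 samples. Reads on genes ranged from 6507018 to 13519421 per library, and from 1704479 to 3551398 without the ribosomal RNA gene Rn45s. Levels are given as CPM, edgeR's usual measure: read counts scaled to library size with TMM, with Rn45s kept in that size. Rbbp5 itself stood at 4.07, 6.41 and 5.10 CPM in WT vehicle and 5.37, 5.03 and 5.71 in WT tunicamycin. In LKO it stood at 4.15, 1.90 and 2.79 CPM with vehicle, and at 2.80, 3.12, 3.46 and 2.06 after tunicamycin. The library labelled LKO vehicle 1 lay inside the WT vehicle range. Averaged over treatments, Rbbp5 was lower in LKO by -0.89 ± 0.18 (log2 fold change ± SE, edgeR adjusted p = 0.0181).

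The DNA just before the start sites was searched for elements of the clock, and elements elsewhere in the genes were not looked for. RefSeq promoter sequence (GRCm38.p6, the mm10 assembly) was matched for 8 of the 9 members, and gene positions below are of the same build. It gave 9 windows of 250 bases before the start, Tef having 2 starts. No window was at hand for Bhlhe40, so that gene was not searched. Both strands were searched for 5 elements. The E-box CACGTG lay in windows of 3 members, Tef, Ciart and Bhlhe41, against 6.02% of 32851 promoter windows of that length. Ciart held 3 copies, 116, 58 and 44 bases before the start. The related E-prime box CACGTT, read here as AACGTG on the opposite strand, lay 28 bases before the start of Nr1d1 (3.85% of promoters). A REV-ERB element (TAGGTCA or TGGGTCA), as TGACCTA on the opposite strand, lay 12 bases before the start of Nfil3 (5.38%). That window lies inside the RefSeq span of Nfil3, and the element falls in its last 34 bases, which GENCODE M21 annotates as Nfil3 exon. No window held a D-box (TTATGTAA or TTACGTAA, 0.931% of promoters) or an ATF4 element (TGATGCAA or TGATGAAA, 1.67%). Bases inside annotated exons were left out of the sequences shown, all of them 5′ to 3′ on the gene's strand. The window of the first Tef start lay wholly in annotated exons, of Tef and Gm17597, and is not shown, so its E-box is exon sequence. The E-boxes and the E-prime box are in capitals, and the Hlf window, from the gene with the smallest p, has none.
Ciart, chr3:95882252-95882478, minus strand: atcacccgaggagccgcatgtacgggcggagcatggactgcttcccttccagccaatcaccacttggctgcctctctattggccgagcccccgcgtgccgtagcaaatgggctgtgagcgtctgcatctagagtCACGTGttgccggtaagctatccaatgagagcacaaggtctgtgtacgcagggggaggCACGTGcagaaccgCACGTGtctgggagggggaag
Tef second start, chr15:81811164-81811413, plus strand: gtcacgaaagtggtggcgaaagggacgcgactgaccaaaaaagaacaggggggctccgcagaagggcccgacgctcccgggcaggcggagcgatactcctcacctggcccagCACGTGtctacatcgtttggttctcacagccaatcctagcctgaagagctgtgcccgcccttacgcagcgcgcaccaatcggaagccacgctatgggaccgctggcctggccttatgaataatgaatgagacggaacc
Bhlhe41, chr6:145865559-145865670, minus strand: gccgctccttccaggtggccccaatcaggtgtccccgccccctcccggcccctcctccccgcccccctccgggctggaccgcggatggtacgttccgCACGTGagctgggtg
Nr1d1, chr11:98775378-98775627, minus strand: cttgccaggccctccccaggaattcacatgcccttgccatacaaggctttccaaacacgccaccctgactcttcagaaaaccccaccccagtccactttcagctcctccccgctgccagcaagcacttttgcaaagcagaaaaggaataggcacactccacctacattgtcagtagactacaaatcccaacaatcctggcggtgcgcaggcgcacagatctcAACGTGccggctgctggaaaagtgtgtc
Hlf, chr11:90390918-90391167, minus strand: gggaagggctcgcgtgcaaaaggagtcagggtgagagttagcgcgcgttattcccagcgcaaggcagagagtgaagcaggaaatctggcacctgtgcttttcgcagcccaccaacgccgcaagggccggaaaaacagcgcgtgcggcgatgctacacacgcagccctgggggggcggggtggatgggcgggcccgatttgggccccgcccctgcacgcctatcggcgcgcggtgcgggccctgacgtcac
The Bhlhe41, Nr1d1 and Hlf stretches lie upstream of their genes, that of Ciart does so but for its last few bases, which reach into the RefSeq span of the gene, and that of Tef lies within the gene, before its internal start. The bases just after the starts of Nr1d1 and Hlf were not found in a GENCODE M21 transcript of these genes. A match to these letters is a description of the window and not evidence of binding.

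Levels between genes were compared per transcript length, as the deposited FPKM. In WT vehicle, 4 members stood close together: Dbp at 5.11 ± 0.65 FPKM (mean ± SD, n = 3), Nr1d2 at 4.78 ± 0.34, Bhlhe40 at 4.73 ± 0.38 and Tef at 4.48 ± 0.30. Their ranges overlapped, so their order is not resolved. Nr1d1 followed at 2.40 ± 0.62 FPKM and Hlf at 1.75 ± 0.01, and the lowest Nr1d1 value, 1.83, lay above the highest Hlf value, 1.77. Nfil3 at 1.32 ± 0.17 and Ciart at 1.28 ± 0.24 overlapped each other. Bhlhe41 was the lowest at 0.167 ± 0.040 FPKM, and it rested on 4 to 29 reads per library. All 9 members were thus detected in every library, with Nr1d2, at 238 to 549 reads, among the best covered.

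**Figure D1:**
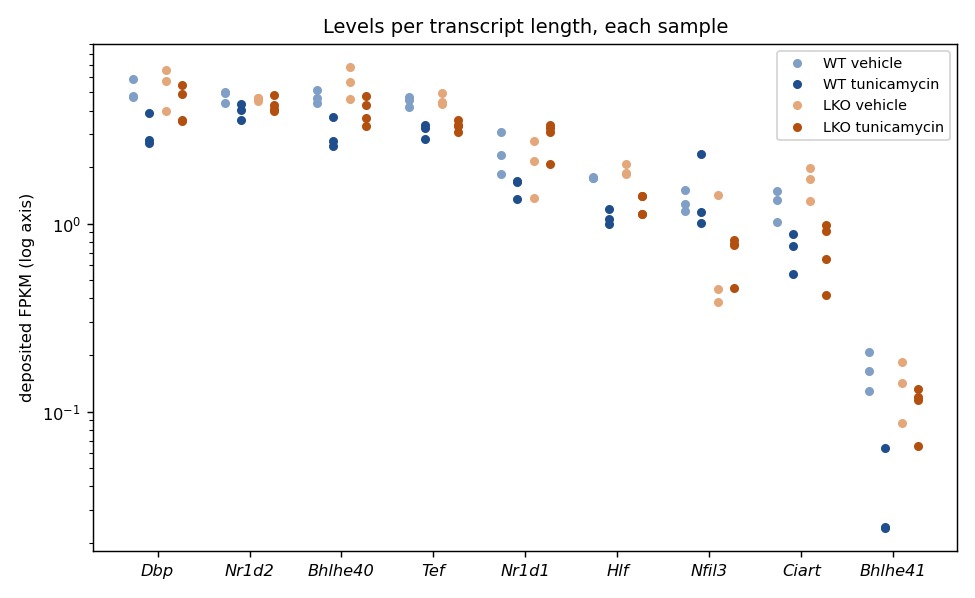
Deposited FPKM of the 9 clock output genes (log axis) in the 4 groups, with 1 point per sample. Dbp, Nr1d2, Bhlhe40 and Tef lie together near the top, and Bhlhe41 lies far below the other 8 in each group.

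The first question was what tunicamycin did to these genes. With the effect averaged over genotypes, 4 of the 9 members passed edgeR's quasi-likelihood test and all 4 were lower. A gene counts as called here when its p, adjusted by Benjamini and Hochberg's method for the 9644 genes tested, is under 0.05. Among all genes, 4.32% were called, 2.15% as lower. The median log2 fold change was -0.41 over the members and 0.01 over all genes tested, and 8 of the 9 members were below 0, against 48.5% of all genes. WT and LKO mice share no library, so the effect in each genotype was measured on separate mice.

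**Figure D2:**
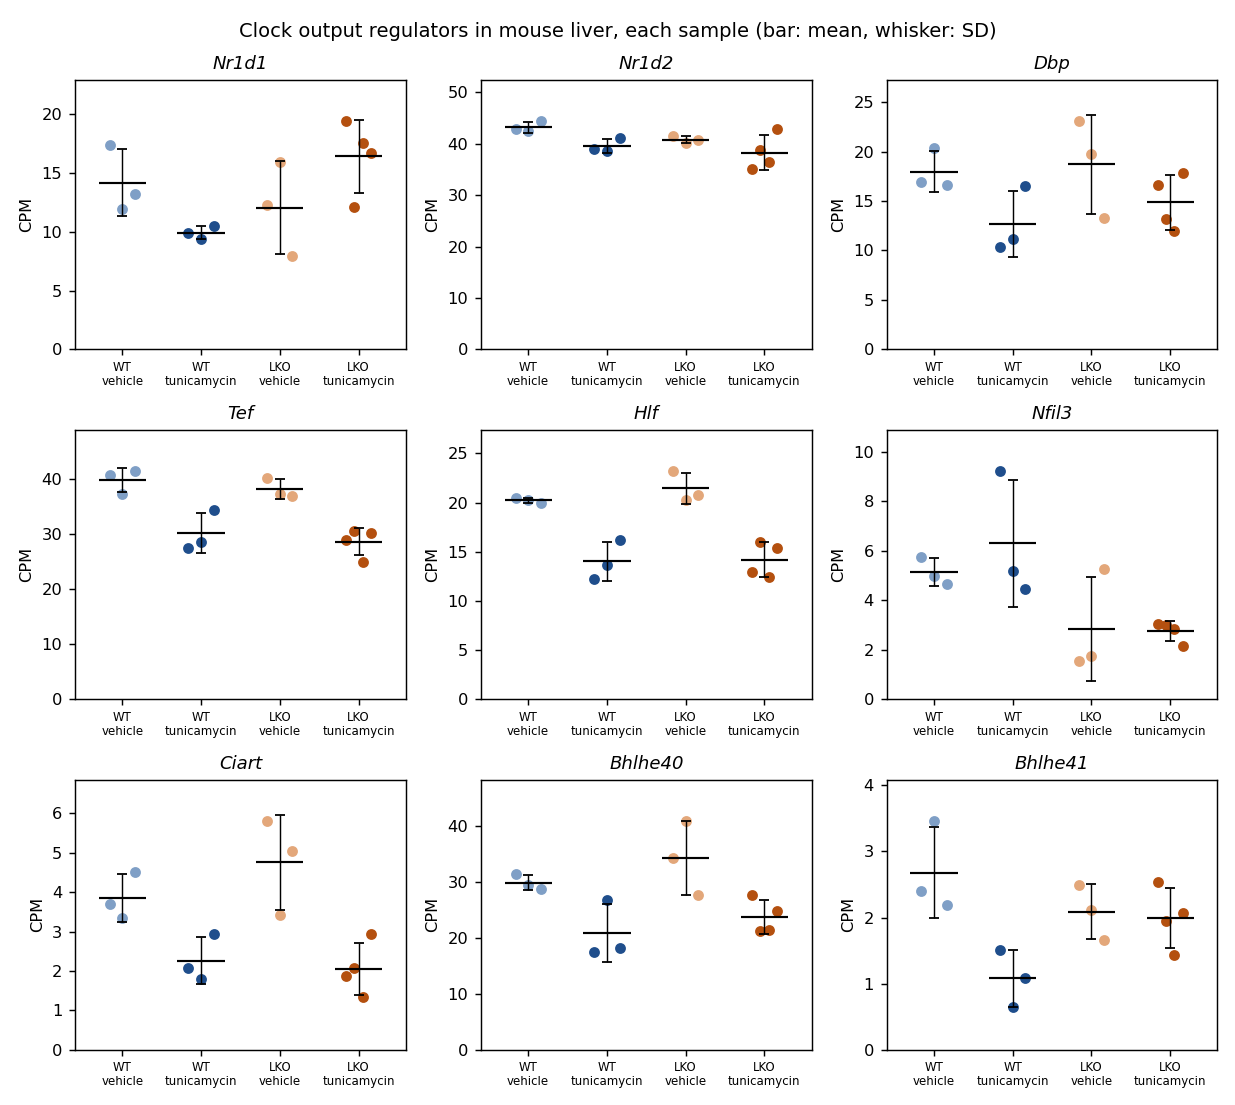
CPM of each clock output gene in every sample, with 1 panel per gene, 1 point per sample, a bar at the group mean and whiskers of 1 SD. For Hlf, Tef and Ciart every tunicamycin sample lies below every vehicle sample of its genotype.

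Among the PAR bZIP factors, Hlf (chr11:90336535-90390917) had the smallest p of the 9 genes and ranked 8 among all genes by p. It stood at 20.5, 20.2 and 19.97 CPM in WT vehicle, and at 12.2, 13.6 and 16.2 in WT tunicamycin. In LKO it stood at 23.2, 20.3 and 20.8 CPM with vehicle, and at 12.9, 16.01, 12.4 and 15.4 after tunicamycin. All 7 tunicamycin samples were below all 6 vehicle samples. Hlf fell by 32.2% on average, a log2 fold change of -0.56 ± 0.09 (edgeR adjusted p = 0.0106). The effect was -0.53 ± 0.14 in WT (adjusted p = 0.0923) and -0.59 ± 0.12 in LKO (adjusted p = 0.175), so it passed the threshold in neither genotype alone.

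Tef (chr15:81802673-81826863), the PAR bZIP factor with an E-box before each of its starts, the first of them in annotated exon, moved likewise. It stood at 40.7, 37.3 and 41.4 CPM in WT vehicle, 27.5, 28.5 and 34.3 in WT tunicamycin, 40.2, 37.3 and 36.9 in LKO vehicle, and 28.9, 30.4, 24.97 and 30.1 in LKO tunicamycin. The vehicle and tunicamycin samples did not overlap in either genotype. Tef fell by 24.7% (log2 fold change -0.41 ± 0.08, edgeR adjusted p = 0.0160), with -0.40 ± 0.12 in WT and -0.41 ± 0.11 in LKO.

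Dbp (chr7:45705100-45710203), a PAR bZIP factor known for a wide daily swing in liver, was more variable between mice. It stood at 16.9, 20.4 and 16.6 CPM in WT vehicle and 10.3, 11.2 and 16.5 in WT tunicamycin, where the groups only just separate. In LKO the groups overlapped, with 23.1, 19.8 and 13.2 CPM with vehicle and 16.7, 13.1, 11.9 and 17.8 after tunicamycin. The averaged log2 fold change was -0.41 ± 0.15, the same size as that of Tef, and did not pass the test (edgeR adjusted p = 0.121). Exons of Dbp overlap those of Sphk2 on the opposite strand by 539 bases (GENCODE M21), and strand-blind counting assigns Dbp only 23.6% of the reads it has here. On those fewer reads its averaged log2 fold change was -0.20 (adjusted p = 0.694).

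Nfil3 (chr13:52967209-52982878), which opposes the PAR factors at D-boxes, did not follow them. It stood at 5.75, 5.00 and 4.66 CPM in WT vehicle, 9.22, 5.19 and 4.48 in WT tunicamycin, 1.54, 1.75 and 5.28 in LKO vehicle, and 3.06, 2.99, 2.85 and 2.17 in LKO tunicamycin. The treated and untreated samples overlapped in both genotypes, and the averaged log2 fold change was 0.08 ± 0.26 (edgeR adjusted p = 0.906, 95% interval -0.47 to 0.62).

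The E-box dependent repressor Ciart (chr3:95878500-95882257) had the largest fall of the called members. It stood at 3.71, 3.33 and 4.52 CPM in WT vehicle and 2.06, 1.78 and 2.93 in WT tunicamycin, then at 5.81, 3.43 and 5.04 in LKO vehicle and 1.87, 2.08, 1.32 and 2.93 in LKO tunicamycin. The groups did not overlap in either genotype. Ciart fell by 49.2% (log2 fold change -0.98 ± 0.20, edgeR adjusted p = 0.0164), with -0.76 ± 0.31 in WT and -1.19 ± 0.25 in LKO, on 11 to 52 reads per library. Hlf, Tef and Ciart were the 3 members whose tunicamycin samples lay below the vehicle samples in both genotypes, a pattern shown by 1.64% of all genes.

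Bhlhe40 (chr6:108660629-108666925), a repressor that is also induced by many signals outside the clock, was called as well. It stood at 31.4, 29.3 and 28.7 CPM in WT vehicle and 17.5, 26.8 and 18.1 in WT tunicamycin. In LKO it stood at 34.2, 40.8 and 27.5 CPM with vehicle and 27.6, 21.2, 21.4 and 24.8 after tunicamycin, where only LKO tunicamycin 1 reached the lowest vehicle sample. Bhlhe40 fell by 30.6% (log2 fold change -0.53 ± 0.12, edgeR adjusted p = 0.0223), with -0.53 ± 0.18 in WT and -0.53 ± 0.16 in LKO.

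Its paralog Bhlhe41 (chr6:145858243-145865420) stood at 2.39, 3.46 and 2.19 CPM in WT vehicle and 1.51, 0.649 and 1.08 in WT tunicamycin. In LKO it stood at 2.49, 2.12 and 1.66 CPM with vehicle and 2.53, 1.95, 1.43 and 2.06 after tunicamycin. The WT groups separated and the LKO groups overlapped throughout. The averaged log2 fold change was -0.66 ± 0.22 (edgeR adjusted p = 0.0972), with -1.28 ± 0.35 in WT (adjusted p = 0.111) and -0.05 ± 0.27 in LKO (adjusted p = 0.981).

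The REV-ERB receptors, which repress Bmal1 and a set of metabolic genes, were not called. Nr1d2 (chr14:18204056-18239106) stood at 42.9, 42.4 and 44.5 CPM in WT vehicle, 38.9, 38.6 and 41.2 in WT tunicamycin, 41.5, 40.1 and 40.7 in LKO vehicle, and 35.0, 38.8, 36.4 and 42.8 in LKO tunicamycin. Its averaged log2 fold change was -0.11 ± 0.07 (edgeR adjusted p = 0.428, 95% interval -0.26 to 0.04).

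Nr1d1 (chr11:98767932-98775377) had opposite signs in the 2 genotypes. It stood at 17.4, 11.9 and 13.3 CPM in WT vehicle and lower, at 9.91, 9.40 and 10.5, in WT tunicamycin. In LKO it stood at 12.3, 15.9 and 7.95 CPM with vehicle and at 19.5, 12.1, 17.5 and 16.7 after tunicamycin, so that 3 of the 4 treated samples exceeded every untreated one. The log2 fold change was -0.52 ± 0.24 in WT (edgeR adjusted p = 0.323) and 0.46 ± 0.20 in LKO (adjusted p = 0.379), which average to -0.03 ± 0.16 (adjusted p = 0.943).

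**Figure D3:**
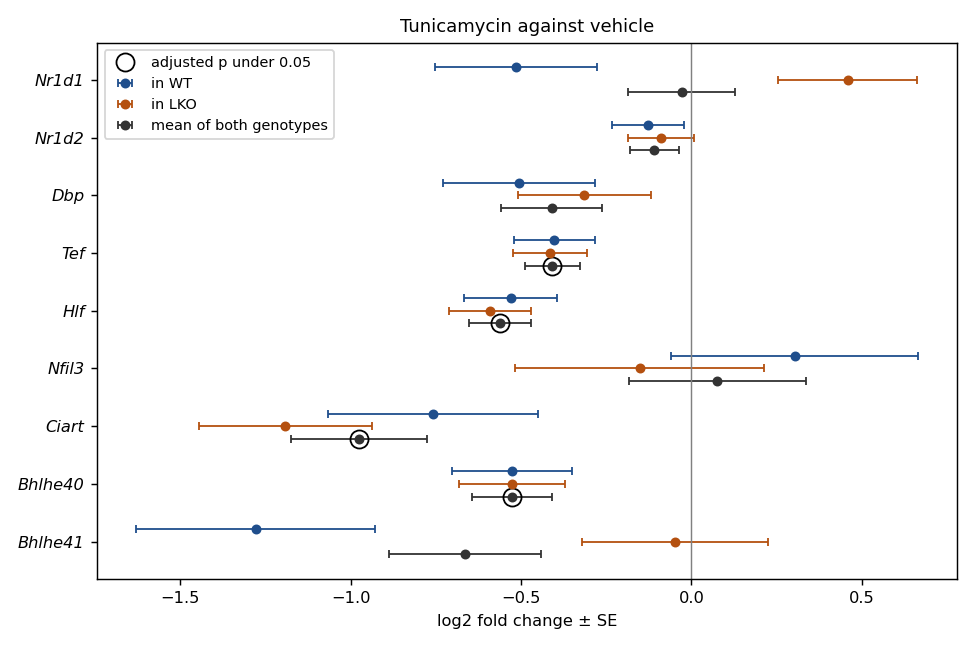
Log2 fold change of tunicamycin against vehicle for each clock output gene in WT, in LKO and averaged over genotypes. Points are edgeR estimates, bars are ± 1 SE, and open circles mark an adjusted p under 0.05: Hlf, Tef, Ciart and Bhlhe40 lie below 0 in both genotypes and carry the circle for the average, and Nr1d1 and Bhlhe41 are the members whose WT and LKO values lie farthest apart.

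Within single genotypes no member passed the threshold, where few genes did: 0.363% of all genes were called in WT and 0.0311% in LKO. The WT groups did not overlap for 8 members, all lower and all but Nfil3, against 8.65% of all genes, and the LKO groups for 3, Hlf, Tef and Ciart, against 6.55%. At an unadjusted p under 0.05, edgeR placed 7 members lower in WT, all but Nr1d2 and Nfil3, against 6.85% of all genes. In LKO it placed 4 lower, Hlf, Tef, Ciart and Bhlhe40, against 6.33%, and 1 higher, Nr1d1, against 5.83%. DESeq2 called 0 members in WT and 1 in LKO, Hlf.

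A direct test of the difference between the genotypes' responses, the interaction, called 0 genes of 9644 in edgeR and 0 in DESeq2, while 4.91% of all genes had an unadjusted edgeR p under 0.05. Of the members 2 were among that 4.91%, Nr1d1 (log2 difference 0.97 ± 0.31, edgeR adjusted p = 0.935) and Bhlhe41 (1.23 ± 0.45, edgeR adjusted p = 0.935). For the 4 called members the difference was -0.06 ± 0.18 for Hlf, -0.01 ± 0.16 for Tef, 0.00 ± 0.22 for Bhlhe40 and -0.43 ± 0.41 for Ciart. Their 95% intervals ran from -0.45 to 0.32, -0.35 to 0.33, -0.47 to 0.47, and -1.29 to 0.43, which leaves room for a difference of a size like the effects themselves.

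The count of called members held at 4 when the library labelled LKO vehicle 1 was left out and when LKO vehicle 3 and 4 were kept as separate libraries. It fell to 1, Hlf, without WT tunicamycin 1, where the adjusted p was 0.0533 for Tef, 0.0570 for Ciart and 0.0724 for Bhlhe40, and rose to 5, with Dbp, without WT tunicamycin 3. Scaling by total counts moved the median of all genes by -0.12 in this comparison and called 6 members, and 18.9% of all calls were then higher in place of 50.4%.

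The second question was what the loss of hepatocyte Rbbp5 did. No member was called with vehicle, where 0.0415% of all genes were, nor after tunicamycin (0.861%), nor averaged over treatments (2.21%). At an unadjusted p under 0.05, edgeR counted 0 members with vehicle against 8.15% of all genes, 3 after tunicamycin against 15.8%, and 1 averaged against 18%. DESeq2 called 0 members in the first 2 of these comparisons and 1, Nfil3, in the averaged one. No genotype difference was resolved for the PAR bZIP factors. Averaged over treatments, the log2 fold change was 0.05 ± 0.09 for Hlf, -0.07 ± 0.08 for Tef and 0.14 ± 0.15 for Dbp, with 95% intervals within -0.24 and 0.45.

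**Figure D4:**
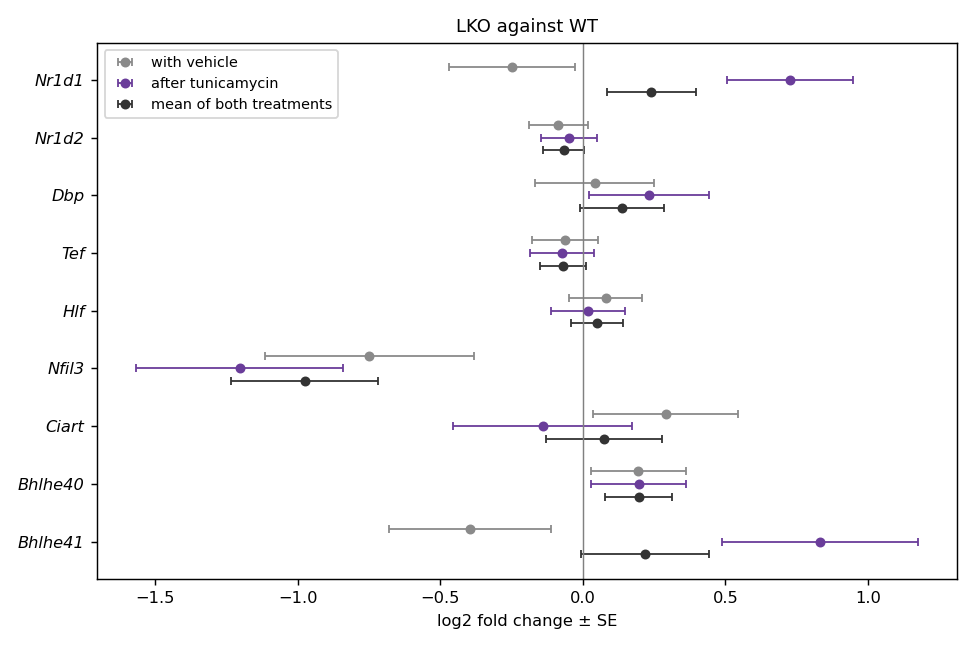
Log2 fold change of LKO against WT for each clock output gene with vehicle, after tunicamycin and averaged over treatments, as edgeR estimates with bars of ± 1 SE. Nfil3 lies below 0 in all 3 comparisons and no member passed the threshold, and Nr1d1 and Bhlhe41 lie above 0 after tunicamycin.

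Nfil3 came closest. Its values listed above put LKO tunicamycin, from 2.17 to 3.06 CPM, below WT tunicamycin, from 4.48 to 9.22, without overlap, as in 6.58% of all genes. With vehicle, LKO samples 1 and 2 were below every WT sample and the summed LKO sample 3 and 4, at 5.28 CPM, was inside the WT range. The log2 fold change was -0.75 ± 0.37 with vehicle (edgeR adjusted p = 0.618), -1.20 ± 0.36 after tunicamycin (adjusted p = 0.122) and -0.98 ± 0.26 averaged (adjusted p = 0.0593). Leaving out LKO vehicle 3 and 4 gave an averaged value of -1.41 with an adjusted p of 0.00234, and leaving out WT tunicamycin 2 or 3 gave 0.0455 or 0.0469. Over the 13 samples left out in turn the adjusted p ran from 0.00234 to 0.152.

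After tunicamycin Nr1d1 was higher in LKO without overlap (as 6.34% of all genes), 12.1 CPM being the lowest LKO sample and 10.5 the highest WT sample. The log2 fold change was 0.73 ± 0.22 (edgeR adjusted p = 0.126). Bhlhe41 was at 0.83 ± 0.34 (adjusted p = 0.248), with overlapping groups. With vehicle the single member without overlap was Nr1d2, lower in LKO by -0.09 ± 0.10 (adjusted p = 0.877), a separation shown by 7.58% of all genes.

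Mice of the same group differed from each other, and members could be compared in these deviations with the group means removed. Over 13 samples and 36 pairs of members, none had an adjusted p under 0.05 for Pearson's r in an exact two-sided permutation test within groups (5184 permutations), and 1 did for Spearman's rho. That pair was Nr1d2 and Ciart (rho = 0.89, exact p = 0.000579, adjusted p = 0.0208; r = 0.78, exact p = 0.00810, adjusted p = 0.0972). Tef and Hlf had the highest r, 0.85 (exact p = 0.00251, adjusted p = 0.0903; rho = 0.85, exact p = 0.00444, adjusted p = 0.0799). Tef and Ciart followed at r = 0.79 (exact p = 0.00791, adjusted p = 0.0972; rho = 0.81, exact p = 0.00714, adjusted p = 0.0856).

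Dbp and Nfil3 ran opposite to each other, at r = -0.78 (exact p = 0.0118, adjusted p = 0.106; rho = -0.70, exact p = 0.0403, adjusted p = 0.242). Without the 2 samples farthest from the median of the first gene, r was 0.86 for Nr1d2 and Ciart, 0.76 for Tef and Hlf, 0.74 for Tef and Ciart, and -0.80 for Dbp and Nfil3. These 2 samples were picked on log2 CPM before the group means were removed, so a sample with a large deviation could stay. For Dbp and Nfil3, LKO vehicle 3 and 4 stayed, with deviations of -0.46 and 1.04. The value of -0.80 therefore does not show how far that pair rests on that sample. Over all 36 pairs 19 were positive and 17 negative, with a median r of 0.04. Every pair with Nfil3 was negative, from -0.05 to -0.78. Pairs among Nr1d2, Tef, Hlf and Ciart, picked after their values were seen, ran from 0.57 to 0.85. The count of signs therefore does not tell whether the set varied together.

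**Figure D5:**
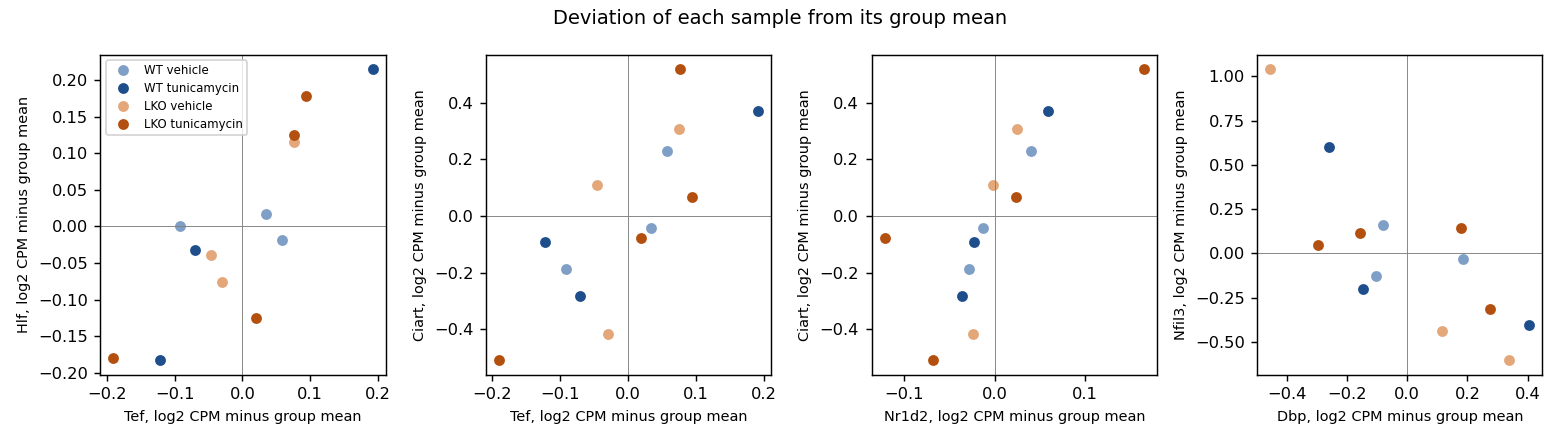
Log2 CPM of pairs of clock output genes in 13 samples after subtracting each group's mean, 1 panel per pair and 1 colour per group. The pairs with the smallest p are shown, chosen after their values were seen, with r = 0.85 for Tef and Hlf and r = -0.78 for Dbp and Nfil3.

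The rest of the clock was looked at through lists chosen by known role. Of 14 core clock genes 12 were tested, and in the averaged tunicamycin comparison 4 were lower and 0 higher. Among them were the repressors Per2 (log2 fold change -0.59 ± 0.13, edgeR adjusted p = 0.0195), Per1 (-0.42 ± 0.10, 0.0303) and Cry1 (-0.85 ± 0.23, 0.0461). Clock, an activator, was at 0.34 ± 0.12 (0.119). The list's median was -0.32. Arntl, the main REV-ERB target of the clock, had too few reads to be tested, at 0.148 to 1.22 CPM. The 4 calls were lost without WT vehicle 1 (0 called), and 0 to 4 were called as lower over the 13 samples left out in turn.

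Targets of the PAR bZIP factors in liver were mixed in strength. Of 7 tested genes 2 were lower and 0 higher: Cyp2a5, a coumarin hydroxylase (log2 fold change -1.56, edgeR adjusted p = 0.0193), and Ppara, the fatty acid receptor (-0.44, adjusted p = 0.0407). Cyp2a5 ranged from 162 to 211 CPM in WT vehicle and from 46.4 to 202 in WT tunicamycin, and from 127 to 280 in LKO vehicle and from 26.5 to 75.8 in LKO tunicamycin, so the groups separated in LKO only. It shares sequence with Cyp2a4, so reads may be split between the pair. The list's median was -0.44, and without WT tunicamycin 1 none was called.

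Of 8 tested genes that REV-ERB represses, 1 was called, Cry1, which is also in the core list, as lower. Insig2, a brake on sterol synthesis, was at 0.48 (edgeR adjusted p = 0.0551), and the list's median was 0.12. Nr1d1 and Nr1d2 themselves were not called in this comparison. The Cry1 call was lost in 10 of the 13 fits that left out a sample, with the replicate block, with FPKM and with DESeq2, which called 1 gene of the list as higher. Without WT tunicamycin 3, 2 genes of this list were called as higher.

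Other clock-controlled genes gave 3 lower and 1 higher of 7 tested, with a median of -0.63. Usp2, a deubiquitinase under CLOCK and BMAL1, was at -1.04 (edgeR adjusted p = 0.0160), Nampt, the rate-limiting enzyme of NAD salvage, at -0.63 (0.0160), Lonrf3 at -1.11 (0.0373) and Leo1 at 0.55 (0.0407). Without WT tunicamycin 1 none was called. These lists share Arntl, Clock, Npas2, Per1, Cry1, Tsc22d3 and Nfil3 with each other or with the members, and their counts are not independent.

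Glucocorticoid-induced genes were added because these hormones reset the liver clock. Of 7 tested, 3 were lower and 0 higher: Dusp1, a phosphatase of MAP kinases (log2 fold change -1.82, edgeR adjusted p = 0.000623), Zbtb16 (-1.25, 0.0170) and Per1. Dusp1 lay at 7.78 to 9.91 CPM in WT vehicle and 1.65 to 3.70 in WT tunicamycin, and at 6.13 to 11.8 in LKO vehicle and 2.27 to 3.04 in LKO tunicamycin. It was called in WT (-1.89, adjusted p = 0.0170) and in LKO (-1.74, adjusted p = 0.0268). Zbtb16 was also called for genotype, as lower in LKO, after tunicamycin (-1.78, adjusted p = 0.0441) and averaged over treatments (-1.30, adjusted p = 0.0169). The count of 3 in the averaged tunicamycin comparison ran from 1 (without WT tunicamycin 1) to 4 over the samples left out and from 1 to 5 under other settings.

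Markers of other cells moved with both factors. In the averaged tunicamycin comparison both tested neutrophil markers were higher, S100a8 (log2 fold change 2.51, edgeR adjusted p = 0.0273) and S100a9 (2.34, adjusted p = 0.0257). The summed level of the 3 neutrophil markers in the files was 0.128 to 0.875 CPM in WT vehicle, 0.154 to 7.84 in WT tunicamycin, 0.474 to 2.04 in LKO vehicle and 3.37 to 6.64 in LKO tunicamycin. All 9 Kupffer cell and macrophage markers had a log2 fold change above 0 and none was called, with sums of 51.5 to 64.6, 61.0 to 78.4, 41.3 to 68.2 and 65.4 to 125 CPM in the same order. Hepatocyte markers summed to 13045 to 22788 CPM over all groups and none was called in the tunicamycin comparisons, though Ass1 was at 0 in LKO tunicamycin and had no more than 1 read in any other library.

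The genotype comparison carried marker shifts too. Averaged over treatments, 3 of 7 tested stellate cell and fibroblast markers, Col1a1, Col3a1 and Pdgfrb, and 2 of 3 tested bile duct markers, Spp1 and Cdh1, were higher in LKO. Of 6 tested hepatocyte markers 1 was called, Hnf4a, a transcription factor of hepatocyte identity, as lower in LKO, after tunicamycin (-0.54 ± 0.12, edgeR adjusted p = 0.0405) and averaged over treatments (-0.34 ± 0.09, adjusted p = 0.0475). Bile duct markers summed to 18.7 to 20.1 CPM in WT vehicle, 20.5 to 52.2 in WT tunicamycin, 37.0 to 71.5 in LKO vehicle and 64.4 to 137 in LKO tunicamycin. Lymphocyte markers stayed at or below 0.948 CPM in sum, and Hba-a1 and Hbb-bs of red blood cells were at 0 in every library. The tested red blood cell marker, Alas2, an enzyme of heme synthesis, stood at 10.9 to 25.1 CPM over all groups. It was lower in the averaged tunicamycin comparison (-0.52 ± 0.13, edgeR adjusted p = 0.0282). Why Hba-a1 and Hbb-bs held no reads was not tested, so they do not show that red cell RNA was absent. The part of these cells in the values of the clock output genes was not tested.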

How the data were processed

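Liver RNA of 14 mouse libraries in 4 groups of genotype and treatment was analysed, and the labels do not say more of the mice behind the replicates, so p-values measure the spread between these samples. The submitters' processing notes name Trimmomatic, STAR, Cufflinks and the mm10 genome, and their versions are not given in the sources used here. The deposited count files hold whole reads per gene in STAR's 3 columns, per the file headers. The sense-strand column was used, since it held 99.5 to 99.6% of stranded reads. The deposited FPKM table was made by the authors and was used for levels between genes and as an alternative, without the 277 names that occur more than once. No per-sample column was left unused (0). STAR's summary lines were left out of library sizes. Reads on no feature made up 40.8 to 44.8% of the reads on genes and on no feature together. Rn45s, at 72.5 to 75.5% of reads on genes, stayed in the library sizes of the main fit and of the CPM values.

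Counts were fitted in R 4.3.3 with edgeR 4.0.16 (TMM, filterByExpr, quasi-likelihood test, 1 mean per group, 13 samples, 9 residual degrees of freedom, common biological coefficient of variation 0.155). Contrasts averaged over genotypes or treatments are means of the effects in each. A gene was called at an adjusted p under 0.05, and log2 CPM used a prior count of 2. The fit was tested on simulated counts. Alternatives were DESeq2 1.42.0, limma 3.58.1 on log2(FPKM + 1) and log2(FPKM + 0.1), other scalings, filters, count columns, a replicate block and leaving out each sample. Correlations used exact permutations of samples within groups. The 9 genes, the lists and the summing of LKO vehicle 3 and 4 were chosen with earlier results of these data known. Named genes are all 9 members, the called genes of each list (where none is called, the 2 with the smallest p) and, for each member, the 3 tested genes with the highest r to it whose log2 CPM averaged 2 or more. Of the genes these rules name, 2 are not reported here. Other genes named were chosen after their values were seen. Overlaps of genes and exons come from GENCODE M21. Without molecular identifiers reads are not independent molecules.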

Additional observations from a re-analysis of the deposited data

How the results depend on the processing

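With tunicamycin averaged over genotypes, Hlf was called under all 13 samples left out and all 11 other settings, Tef under 12 and 11, Ciart under 12 and 10, and Bhlhe40 under 11 and 10, with the sign kept in each. The count of 4 called members ran from 1 to 5 over the samples left out, and was 2 (Hlf and Tef) with limma on log2(FPKM + 1) without a filter. Bhlhe40 also missed the threshold without WT vehicle 1 (adjusted p = 0.0581). Where the count was 0, total count scaling gave 4 in WT, DESeq2 gave 1 and no filter on low counts gave 2 in LKO, no filter gave 2 for LKO against WT after tunicamycin, and DESeq2 and no filter each gave 1 for that difference averaged over treatments. Over the samples left out these counts ran from 0 to 2 in WT, 0 to 2 in LKO (the 2 in each without WT tunicamycin 3), 0 to 1 after tunicamycin (1 without LKO vehicle 3 and 4) and 0 to 1 averaged (1 without LKO vehicle 3 and 4, WT tunicamycin 2 or WT tunicamycin 3). The interaction and the vehicle comparison gave 0 members in every fit run. Nr1d1 in LKO against WT with vehicle went from -0.25 to 0.00188 without LKO vehicle 3 and 4. Of the correlated pairs, 1 passed with 14 libraries, and 0 to 1 over the samples left out. Ordered by CPM in place of FPKM, 4 of 9 members kept their rank. For the changes named here the cause was not tested.

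Over all genes, the averaged tunicamycin count of 417 ran from 59 (without WT tunicamycin 1) to 1085 over the samples left out and from 21 to 810 under other settings. The count of 35 in WT ran from 0 to 615 and from 2 to 289, of 3 in LKO from 0 to 67 and from 0 to 153, of 4 with vehicle from 0 to 17 and from 0 to 84, of 83 after tunicamycin from 0 to 183 and from 17 to 261, and of 213 for genotype averaged from 62 to 413 and from 31 to 514. With the replicate number as a block, 4 members were called in the averaged tunicamycin comparison and 0 in the others. Same-numbered samples were only weakly correlated: over 12 such pairs the correlation of deviations ran from -0.12 to 0.12 and was above 0.1 in 1. In 5 pairs, all between genotypes within a treatment, the WT sample correlated best with its own number in LKO. Of the pairs between genotypes only tunicamycin 3 did not, while no pair between treatments did. Whether the replicate number tracks something shared within a treatment was not tested. A fit of only the groups compared gives no averaged value and no interaction. With 4 to 29 reads per library for Bhlhe41 and 11 to 52 for Ciart, their intervals were the widest among members after Nfil3.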

Other observations

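The genes most like each member over the 13 samples are given as a description, with Pearson's r of log2 CPM. The samples share the treatment groups, so genes that respond to tunicamycin resemble each other. Tef and Hlf were each other's nearest gene among all tested (r = 0.95), followed for both by the kinase gene Stk35 (0.94 and 0.95) and then by Sdha, a subunit of respiratory complex II, for Tef (0.94) and 2310061I04Rik for Hlf (0.93). Ciart had Hlf (0.92), Polr2b, a subunit of RNA polymerase II (0.92), and Tef (0.92). Among the genes nearest to Nr1d2 were Acsm1 (0.90) and 4931406C07Rik (0.89). Dbp was most like Ttc39c (0.90), Mid1ip1 (0.89) and Srebf1, a regulator of fatty acid synthesis (0.86).

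The remaining members had nearest genes outside the set. Nfil3 was most like Cln8 (0.94), Lrrfip2 (0.90) and Sec24d, a coat subunit of vesicles leaving the endoplasmic reticulum (0.89). Bhlhe40 was most like Psd3 (0.90), Uroc1 (0.87) and Gxylt1 (0.85). Bhlhe41 was most like Hint3 (0.88), Avl9 (0.82) and Per1, a core clock repressor (0.82). Nr1d1 was most like Mug-ps1 (0.84), Ddx46 (0.84) and Ppp1r9a (0.83).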
